A study of Mus musculus with 6 samples.

Results

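The 20515 coding peaks of a ZFP36L2 eCLIP experiment are short stretches of RNA that the authors assigned to protein-coding sequence. They are all the rows of the authors' deposited table of ZFP36L2 against IgG whose transcript region is given as CDS, out of 55449 rows in all, and no measured value entered the choice. They lie in 6233 named genes, of which 6174 (99.1%) were symbols of the RefSeq annotation and 6159 were annotated as protein-coding.

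The material was MLTC-1, an established mouse Leydig cell tumour line, with no genetic change named and with ultraviolet light of 254 nm at 400 mJ/cm2 as the treatment that all libraries share. There were 6 libraries in 4 groups. An antibody against ZFP36L2 gave 2 immunoprecipitation (IP) libraries and 2 input libraries, and the negative control, a rabbit IgG, contributed 1 IP and 1 input library. The table gives each peak a log2 fold change with its p-value, raw and adjusted, but no value of any library, so depth, the spread between libraries and the level of a peak in each group are unknown. The IgG arm rests on 1 IP library, so the antibody and that library cannot be told apart.

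ZFP36L2 is a CCCH-type zinc finger protein of the tristetraprolin family, whose members recognise AU-rich elements, mostly in 3′ untranslated regions, and recruit the deadenylases that shorten the poly(A) tail and start mRNA decay. eCLIP crosslinks proteins to RNA in living cells, pulls 1 protein down with an antibody and sequences the RNA fragments left on it. Coding sequence is the part of a message that ribosomes read, and in most genes it is richer in G and C than the 3′ UTR.

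A few coding peaks can be shown as sequence, because 129 of them, in 101 genes, lie wholly inside one of 32851 RefSeq windows that run from 250 bases before to 50 bases after an annotated transcription start (build GRCm38.p6, the same build as mm10). The window was on the strand of the peak for 35 of the 129, and for the others it belonged to a gene on the opposite strand. Of the peaks shown, Ppp1r14a and Pmpcb lie in windows of their own genes, and Kars, Hacd2 and Gemin5 in windows of opposite-strand genes. They are shown as examples of called coding peaks on either side of the comparison. Each is written 5′ to 3′ on the strand of the peak, with the first ATG in capitals where there is one. Of the 129 peaks, 66 hold an ATG, 4 were enriched and 10 were depleted by the thresholds given further on. These 5 comprise 3 of the enriched peaks and 2 of the depleted ones.

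Ppp1r14a, chr7:29289338-29289368, plus strand, enriched: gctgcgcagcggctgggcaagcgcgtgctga

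Kars, chr8:112011215-112011296, minus strand, enriched: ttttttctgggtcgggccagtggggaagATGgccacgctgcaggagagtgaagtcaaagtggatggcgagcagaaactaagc

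Hacd2, chr16:35022475-35022551, plus strand, enriched: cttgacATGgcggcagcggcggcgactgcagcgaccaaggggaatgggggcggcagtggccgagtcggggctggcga

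Pmpcb, chr5:21737150-21737180, plus strand, depleted: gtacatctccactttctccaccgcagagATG

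Gemin5, chr11:58130161-58130193, minus strand, depleted: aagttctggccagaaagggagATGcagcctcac

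In the authors' deposited table, Ppp1r14a, which encodes an inhibitor of myosin phosphatase, reached 5.34 (adjusted p = 1.0e-11) in log2 fold change. For Kars, the lysyl-tRNA synthetase, the authors' deposited table gives 4.42 (adjusted p = 4.2e-14), and for Hacd2, an enzyme of very long chain fatty acid synthesis, 4.50 (adjusted p = 4.2e-08). Pmpcb, a subunit of the mitochondrial processing peptidase, stood at -4.29 (adjusted p = 2.2e-05) per the authors' deposited table, and Gemin5, a component of the SMN complex, at -3.63 (adjusted p = 0.003). The 3 enriched peaks shown had a G and C content of 74.2%, 54.9% and 72.7%, and the 2 depleted ones 51.6% and 54.5%. With the called peaks not shown, the 2 directions overlapped, since the depleted Stk35 had 68.3% over 82 nucleotides, above the enriched Kars. The enriched Psmc1 had 50%, but over a peak of only 4 nucleotides. The median was 63.8% over the 4 enriched, 56.75% over the 10 depleted and 60% over all 129. The medians of the called peaks rest on few peaks, some very short, such as Psmc1 and the depleted Trmt13 (9 nucleotides).

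The core of the AU-rich element, ATTTA, was in 1 of the 129 peaks (0.775%), against 3% of stretches of the same lengths cut from the middle of all the windows. The longer TATTTA, which contains it, was in 0 of them, against 0.943%. Both were searched on the strand of the peak (or of the window) only. The purine repeats GAAGAA and GGAGGA were each in 8 peaks (6.20%), against 1.57% and 2.59% of the stretches, and GCTGCT was in 3 (2.33%), against 1.73%. All 8 peaks with GAAGAA were among the 115 not called. Of those with GGAGGA, 7 were not called and 1 was depleted. The 4 enriched peaks held 0 of each of these motifs. The middle of a window is sequence before the start site, so the stretches are not coding sequence. These 129 peaks lie near an annotated start of some gene, often another gene's, and are not a sample of the rest.

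Markers of the labelled cell type and of other cell types were looked up, with earlier results of these data known. None of 10 Leydig cell markers had a coding peak (0 of 10), although 7 had a peak in some other region, and Hsd3b1, Cyp17a1 and Insl3 had none. Star, which carries cholesterol into mitochondria, Cyp11a1, the side-chain cleavage enzyme, and Lhcgr, the luteinizing hormone receptor, were among those without a coding peak. Of 8 Sertoli cell markers 3 had a peak in any region and 2 had coding peaks, Clu and Ctsl, both with an enriched one. Sox9, Amh, Wt1, Rhox5 and Dhh had no peak. Of 8 germ cell markers 0 had a coding peak. Macrophage markers had coding peaks in 6 of 7 genes (28 peaks), and cardiac muscle markers in 8 of 8 (199 peaks), among them Myh6, Tnnt2, Nppa and Ryr2. An enriched coding peak was found in 0 macrophage and 3 cardiac muscle markers, and a depleted one in 1 of each. Over all genes with a coding peak the shares were 4.62% enriched and 8.81% depleted. The wider sarcomere and cardiac muscle list held coding peaks in 57 of its 62 genes, which made up 1378 (6.72%) of all coding peaks. The table has no level per library, so the level of these markers in each group cannot be given, and the part of the cardiac genes in the results was not tested. Values without that list stand beside the results they touch.

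Coding peaks made up 37% of the peaks and 38.7% of the nucleotides that the table covers. Their median deposited log2 fold change was -0.72 (quartiles -1.66 and 0.19), and 70.1% lay below 0. The median of the whole table was -1.06, so the median coding peak stood 0.34 above it, and a centring on the table's median turned its sign. Intron peaks had a median of -1.31, 3′ UTR peaks -1.08 and 5′ UTR peaks -1.07, with 80.4%, 78.5% and 76.2% below 0. Without the sarcomere and cardiac muscle list the coding median was -0.80. Since peaks of a gene share their source and no library values exist, no test of the difference between regions was made.

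**Figure D1:**
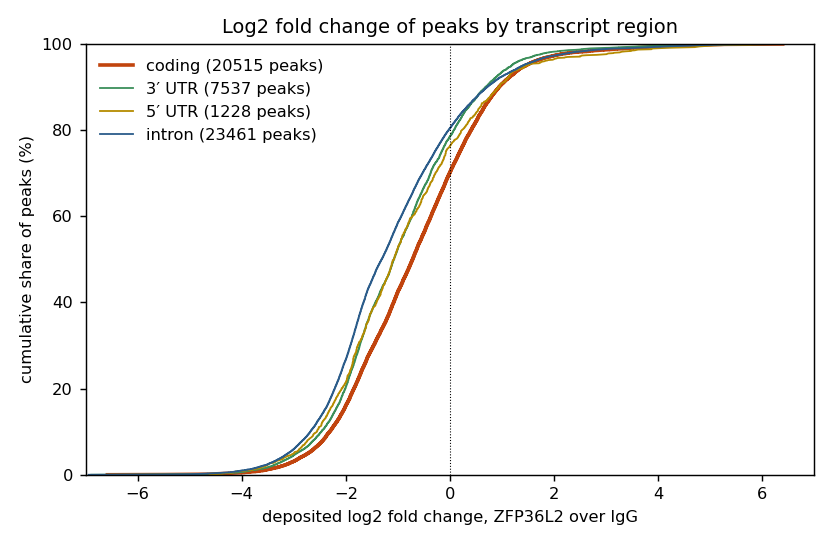
Cumulative share of peaks (%, vertical) by deposited log2 fold change of ZFP36L2 over IgG (horizontal) for coding, 3′ UTR, 5′ UTR and intron peaks, 1 line per region. The coding line lies to the right of the others over most of its course, with a median of -0.72 against -1.31 for introns, and the lines meet near the upper end.

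The term enriched is used for coding peaks with an adjusted p under 0.05 whose log2 fold change was at least 1, and depleted for those under 0.05 whose value was -1 or lower. By this rule 482 coding peaks (2.35%) were enriched, where the background over all peaks of the table was 2.22%. The depleted coding peaks numbered 768 (3.74%), where the background was 5.44%. The enriched share was thus near the background, and the depleted share below it. Of the called coding peaks 38.6% were enriched, compared with 23.5% in introns, 23.2% in 3′ UTRs and 35.5% in 5′ UTRs. Seen from the whole table, coding peaks supplied 39.2% of the enriched and 25.4% of the depleted peaks, against their share of 37% of all peaks. The fold change removed 2 coding peaks whose adjusted p was under 0.05.

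By gene, 288 genes (4.62% of the 6233 with a coding peak) had an enriched coding peak, and 549 (8.81%) had a depleted one. These percentages are the background for every gene list given further on. Most had just 1 such peak, 206 of the enriched genes and 391 of the depleted ones. The median deposited log2 fold change was 3.2 among enriched peaks and -3.27 among depleted ones. A size of 3 or more was reached by 276 coding peaks upward and 643 downward. Without the sarcomere and cardiac muscle list, 423 peaks (2.21%) were enriched and 760 (3.97%) depleted.

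The largest log2 fold change of a coding peak was 6.39 (adjusted p = 6.3e-18) per the authors' deposited table, in Tcaf1, which encodes a factor that regulates TRP channels. It lay at chr6:42677003-42677034, and the other 2 coding peaks of Tcaf1 had values of -0.21 and -0.86 per the authors' deposited table. Nedd4, an E3 ubiquitin ligase, came next with 6.18 (adjusted p = 3.7e-18) for a peak of 7 nucleotides per the authors' deposited table. The tumour suppressor Nf2 had 6.07 (adjusted p = 7.1e-20) at chr11:4806252-4806312 per the authors' deposited table. That was the only coding peak of Nf2, whereas Tcaf1 and Nedd4 also had coding peaks that did not pass. The same held for Acly, ATP citrate lyase, where the authors' deposited table gives 5.56 (adjusted p = 3.0e-20) for 1 of its 3 coding peaks and a lowest value of -0.41.

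The DNA demethylase Tet3 had a peak at 6.03 (adjusted p = 1.3e-16) per the authors' deposited table. Cgnl1, a junction protein, had 3 enriched coding peaks, at 5.94, 4.14 and 6.03 on the log2 scale per the authors' deposited table. The list of the 8 largest was completed by Prr14l (5.81) and Sbno1 (5.69) per the authors' deposited table.

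The smallest adjusted p-values belonged to other genes. Calr encodes calreticulin, a calcium-binding chaperone of the endoplasmic reticulum, and its 4 coding peaks stood at 2.76, 3.87, 3.11 and 3.55 on the log2 scale per the authors' deposited table. The last of these, at chr8:84842949-84842975, had the smallest adjusted p of any coding peak, 6.6e-70 per the authors' deposited table. The 4 peaks fell into 2 regions of touching peaks within chr8:84842811-84842975. All 4 were enriched.

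Ankrd11, a chromatin regulator, had 2 enriched peaks of its 5, at 3.64 and 4.22 (smallest adjusted p = 4.4e-51) per the authors' deposited table. Hsp90ab1, a cytosolic chaperone, had 4 peaks that touched each other over 31 nucleotides, with values of 2.96, 2.97, 3.04 and 3.03 by the authors' deposited table. The 4 values were nearly the same, and the fifth coding peak of the gene had 1.15 (adjusted p = 0.35) per the authors' deposited table. Nrbp2, a pseudokinase, had 1 enriched peak of 113 nucleotides at chr15:76091490-76091602, at 5.35 (adjusted p = 6.2e-41) per the authors' deposited table. The remodeller Atrx had 4.85 (adjusted p = 5.1e-37) and Incenp, a subunit of the chromosomal passenger complex, 4.78 (adjusted p = 2.2e-35) per the authors' deposited table.

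In 10 genes every one of at least 4 coding peaks was enriched, out of 1726 genes with 4 or more. They were Ppp1r15a, Calr, Cdk11b, Hmgn5, Ythdc1, Ncl, Anp32b, Anp32a, Anp32e and Canx. Anp32b, an acidic nuclear protein that binds histones, held the most, 14 peaks in 4 regions of touching peaks between chr4:46468708 and 46471467. Its log2 fold changes lay between 1.61 and 2.32 per the authors' deposited table, a narrow range, and its median peak length was 8.5 nucleotides. Its relatives Anp32a and Anp32e had 5 peaks each, from 1.40 to 2.72 and from 1.25 to 2.08 per the authors' deposited table.

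The 8 peaks of Hmgn5, a nucleosome-binding protein with an acidic tail, lay in 3 regions and ranged from 1.67 to 3.99 per the authors' deposited table. The highest of them, at chrX:109005513-109005543, was the first of 4 touching peaks with values of 3.99, 2.94, 2.98 and 2.23 per the authors' deposited table. Nucleolin, encoded by Ncl, had its 4 peaks in 1 region of 113 nucleotides, with values of 1.93, 1.91, 2.03 and 2.11 by the authors' deposited table. The kinase Cdk11b had 8 peaks in 5 regions, from 2.53 to 3.90 per the authors' deposited table. Ppp1r15a, the stress-induced subunit that directs phosphatase to the translation factor eIF2α, had values of 3.96, 4.46, 3.34 and 3.05 per the authors' deposited table.

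Ythdc1, a nuclear reader of N6-methyladenosine, had 6 peaks in 2 neighbouring regions that differed in level. The first region's 4 peaks had values of 2.20, 2.13, 2.19 and 2.48 per the authors' deposited table, while the second region's pair had 1.30 and 1.19. Canx, the membrane-bound partner of calreticulin in folding, showed a wider gap. Its 5 peaks at chr11:50297270-50297385 ranged from 1.22 to 1.75 per the authors' deposited table, whereas 2 peaks at chr11:50299137-50299179 had 4.29 and 4.99. In Ythdc1 and Canx the touching peaks of a region were closer to each other than to those of the other region, and in Hmgn5 they were not. No test of this was made.

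The same filter gave 7 genes whose coding peaks were all depleted: Slc4a2, Lamp1, Klhdc3, Rbm10, Insig1, Srf and Ptk7. Slc4a2, an anion exchanger, had 8 peaks across chr5:24431281-24439347, with values from -2.39 to -1.71 per the authors' deposited table. Klhdc3, a substrate receptor for ubiquitin ligases, had 7 peaks, all depleted. Inppl1, an inositol phosphatase, also had 7 depleted peaks, but among 13. For Klhdc3 they ranged from -6.17 to -2.54 per the authors' deposited table. Rbm10, a splicing regulator, had 6, with a lowest value of -6.28 (adjusted p = 1.7e-14) at chrX:20647349-20647390 per the authors' deposited table. The lysosomal membrane protein gene Lamp1 had 6 peaks from -4.57 to -1.92 per the authors' deposited table, of which 2 were 1 and 2 nucleotides long.

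Insig1, which holds the sterol sensor in the endoplasmic reticulum, had values of -5.35, -4.60, -3.23 and -3.97 per the authors' deposited table. Srf, the serum response factor, had 6 peaks from -5.76 to -2.71 per the authors' deposited table. Ptk7, a pseudokinase receptor, had values of -5.32, -6.07, -4.57 and -3.95 by the authors' deposited table. The most negative coding peak of all was in Tbc1d19, at -6.58 (adjusted p = 3.6e-20) per the authors' deposited table, and the smallest adjusted p among depleted peaks was in Klc4, a kinesin light chain, 1.7e-24 at -6.35.

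Several of these depleted genes are neighbours. On chromosome 17, 12 of the 14 coding peaks in a bin of 200000 bases were depleted, in Cul9, Ptk7 and Srf, and they lay between 46543745 and 46579660. In the next bin 11 of 26 were depleted, in Klc4, Klhdc3 and Ppp2r5d, between 46644339 and 46687649. Over all coding peaks 3.74% were depleted. The bins, and Cul9 in the first, were named here after their values were seen. The median deposited log2 fold change of the depleted peaks was -4.88 in the first bin and -4.25 in the second. Whether anything other than position links them was not tested.

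**Figure D2:**
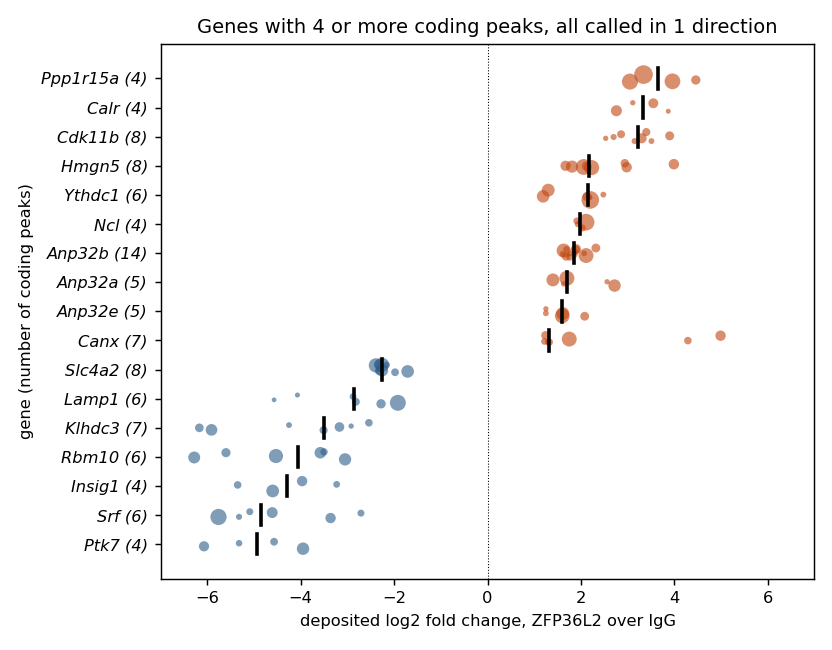
Deposited log2 fold change (horizontal) of every coding peak in the 17 genes with 4 or more coding peaks that were all called in 1 direction (vertical, number of peaks in brackets). Each point is a peak, with larger points for longer peaks, and the black bar is the gene's median. Anp32b's 14 points sit within 1.61 to 2.32, while Canx splits into 5 low and 2 high points, and Klhdc3 and Rbm10 spread past -6.

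Some genes had coding peaks called in both directions. There were 17 of them, among the 288 genes with an enriched and the 549 with a depleted coding peak. Over all 6233 genes 8.81% had a depleted one, and whether 17 departs from that share was not tested. Flnc, filamin C of muscle, had 6 enriched and 1 depleted among 45 coding peaks, and Hspg2, perlecan of basement membranes, 5 and 2 among 52. Itpkb, an inositol trisphosphate kinase, had 3 enriched peaks of 4.42, 3.57 and 4.33 and 1 depleted peak of -2.47 per the authors' deposited table, between chr1:180333114 and 180333481. In Mcm2, a subunit of the replicative helicase, a peak at 4.52 lay beside 3 peaks of -2.98, -2.77 and -3.47 per the authors' deposited table. Calls in both directions were also counted by region. Of the 15988 regions left after merging touching coding peaks, 411 held an enriched peak, 640 a depleted one and 0 held both. For the 11594 regions of 1 peak this was fixed in advance, since a single peak cannot hold both. The other 4394 regions joined several peaks. Over all coding peaks only 2.35% were enriched and 3.74% depleted, so few regions with both could arise. The 0 is therefore a count only, and whether it departs from these shares was not tested.

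Coding peaks were spread thinly over many genes. The median gene had 2, the upper quartile was 4, and 2075 genes (33.3%) had 1. A further 2432 genes had 2 or 3, 1473 had 4 to 9, 200 had 10 to 19, 45 had 20 to 49 and 8 had 50 or more. The 10 genes with the most held 1192 peaks (5.79%). Titin, the giant spring protein of the sarcomere, led with 566 peaks (2.76% of all) covering 33445 nucleotides, and among the next were Dst with 120, Ryr2 with 98, Pde4dip with 62 and Xirp2 with 54. Dystonin (Dst) links cytoskeletal filaments, Xirp2 belongs to the attachments of the sarcomere, and Ryr2 is the calcium release channel of heart muscle. Among the 20 genes with the most coding peaks 6 were on the sarcomere and cardiac muscle list.

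Many peaks in a gene did not mean many called peaks. Titin had 18 enriched and 1 depleted of its 566, with a median of 0.27 and a range of -2.21 to 3.21 per the authors' deposited table. Ryr2 had 12 enriched of 98, with a highest value of 4.17 per the authors' deposited table. Dst had 1 enriched of 120, with a median of -0.01. In Titin, 14 of the enriched peaks lay in the stretch from chr2:76705073 to 76734419, toward the 3′ end of this minus-strand gene. The bounds of the stretch are those of the enriched peaks, and how many of the 566 coding peaks lie in it was not counted. The 14 therefore cannot tell whether enriched peaks were concentrated there. The depleted peak, at chr2:76751309-76751580, was the longest in the gene.

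The median deposited log2 fold change moved with the number of coding peaks per gene. It was -0.83 for genes with 1 coding peak and -1.06 for those with 2 or 3. It then went to -0.80 at 4 to 9, -0.41 at 10 to 19, -0.07 at 20 to 49 and 0.22 at 50 or more, a class of 8 genes of which 4 were on the sarcomere and cardiac muscle list. The share of genes with at least 1 enriched coding peak was 2.46%, 2.84%, 7.20%, 17.5%, 44.4% and 87.5% in these classes. The share with a depleted one was 3.71%, 8.22%, 14.6%, 18.5%, 37.8% and 37.5%. Counted by peak, the enriched share ran only from 1.50% (2 or 3 per gene) to 3.83% (20 to 49), and the depleted share from 4.82% to 0.453% (50 or more).

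**Figure D3:**
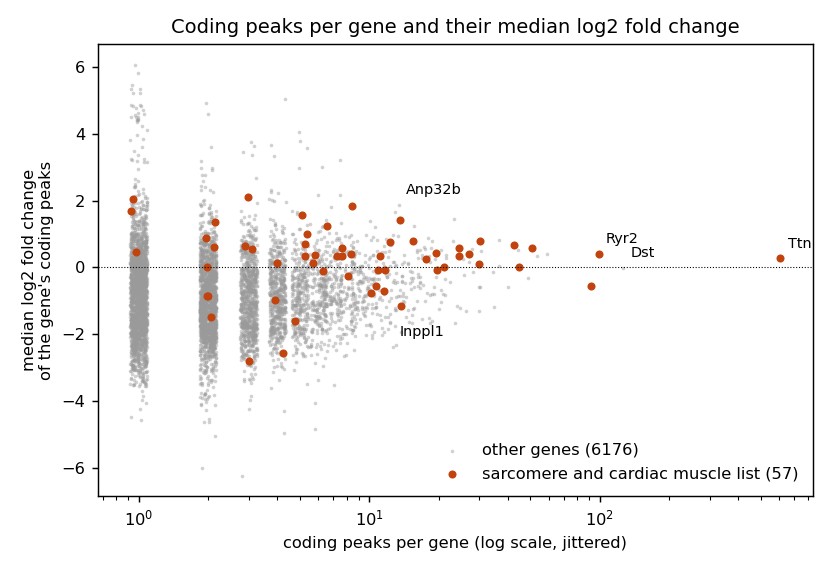
Median deposited log2 fold change of a gene's coding peaks (vertical) by its number of coding peaks (horizontal, log scale, jittered), 1 point per gene, with the 57 genes of the sarcomere and cardiac muscle list in orange. The spread narrows from genes with 1 peak to genes with many, and Ttn stands alone at 566 peaks with a median of 0.27.

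Coding peaks had a median length of 35 nucleotides (quartiles 15 and 56, range 1 to 300). Many were pieces of a longer stretch, since 9199 (44.8%) touched another peak on the same strand, 8933 of them a coding one. A further 136 touched an intron peak, 85 a 3′ UTR peak and 47 a 5′ UTR peak, with some peaks counted under more than 1 kind. Merging gave 15988 regions, of which 4394 joined several peaks, at most 7, and the median region was 50 nucleotides long. Of the 1050 peaks of 5 nucleotides or less, 718 (68.4%) touched a neighbour.

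The median was higher in longer classes of coding peaks. The median deposited log2 fold change was -1.05 for peaks of 1 to 5 nucleotides, -1.13 for 6 to 10 and -1.03 for 11 to 20. It was -0.73 for 21 to 40, -0.63 for 41 to 60, -0.53 for 61 to 80 and 0.28 for the 1039 peaks of 81 or more. In that longest class 8.08% were enriched and 2.12% depleted, and 23.2% came from the sarcomere and cardiac muscle list. The enriched share did not follow the medians throughout, since the shortest class had 3.05% enriched and the classes between 6 and 80 nucleotides 1.24% to 2.75%. Without that list the longest class had a median of 0.24 and 9.02% of 798 peaks were enriched. Across coding peaks the Spearman correlation of length with log2 fold change was 0.187 (n = 20515), or 0.172 without the list, and it was 0.0556 over all other peaks. These are descriptions, since peaks share genes and libraries, and depth is not given.

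**Figure D4:**
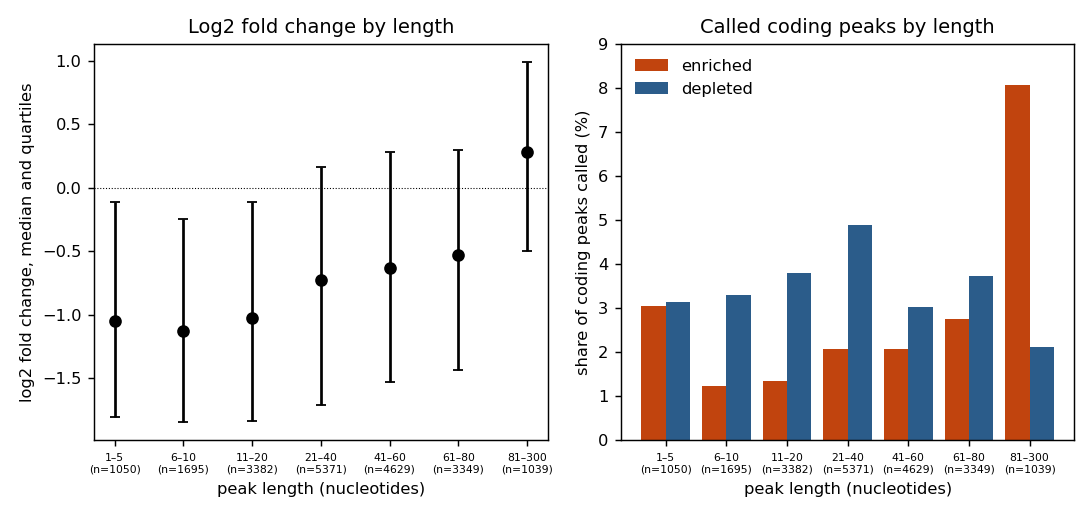
Coding peaks by length class in nucleotides (horizontal in both panels). The left panel gives the median (point) and quartiles (bars) of the deposited log2 fold change, and the right panel the share of peaks (%) that were enriched or depleted, with 8.08% enriched in the longest class.

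The median length was 46 nucleotides for enriched and 32 for depleted coding peaks. Of the depleted peaks 61.8% touched a neighbour, against 32.6% of the enriched. With touching coding peaks merged, the median region was 61 nucleotides where it held an enriched peak and 58 where it held a depleted one. The longest coding peaks were not the most enriched. Fhl1, a LIM domain protein of muscle, had the longest, 300 nucleotides at 0.39 (adjusted p = 1) per the authors' deposited table, but a shorter peak of 56 nucleotides at 3.39 (adjusted p = 0.004). The next were in Titin (272 nucleotides, -1.64), the glycolytic enzyme gene Aldoa (267 nucleotides, 0.51) and Mical2, which oxidises actin (226 nucleotides, 1.05), per the authors' deposited table.

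Groups of genes were read against the background of 4.62% of genes with an enriched and 8.81% with a depleted coding peak. The lists were written with earlier results of these data known, so their counts describe the genes and support nothing further, and no set test was made. Nuclear and nucleolar proteins with acidic stretches had an enriched coding peak in 9 of 30 genes (30%) and a depleted one in 1 (3.33%). The enriched members were Atrx, Anp32b, Anp32a, Ncl, Anp32e, Hdgf, Eif5b, Rsf1 and Nop58, and the depleted one was Baz1a, at -2.91 (adjusted p = 0.016) per the authors' deposited table. The median over the list's 99 coding peaks was 0.64, against -0.72 over all coding peaks. Of its 35 enriched peaks, Anp32b held 14, Anp32a and Anp32e 5 each and Ncl 4, many of them touching. These genes weigh more in that median than the rest, so it does not describe each gene of the list. Its genes had a median of 2 coding peaks, the same as all genes.

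Translation initiation and elongation factors had an enriched coding peak in 8 of 35 genes (22.9%) and a depleted one in 3 (8.57%), at a median of 3 coding peaks per gene. Eif3a, a scaffold subunit of initiation factor 3, had 5 enriched peaks, with values of 3.49, 2.75, 2.72, 3.27 and 3.84 per the authors' deposited table. Its partner subunit gene Eif3c had 4.64 (adjusted p = 4.0e-19) per the authors' deposited table, while another subunit gene, Eif3m, had a depleted peak at -2.88 (adjusted p = 0.02). Pabpc1, which coats the poly(A) tail, was on both sides, with a peak of 107 nucleotides at 3.57 (adjusted p = 2.6e-14) and another of 38 at -3.16 (adjusted p = 0.0015) per the authors' deposited table. The called peaks of initiation factor 3 genes thus lay in both directions. That of Eif3m was its only coding peak. In Eif3c the other coding peaks stood at 0.66 and -0.11 per the authors' deposited table, so its called peak does not describe the whole gene. Eif3b, Eif3f, Eif3g, Eif3i and Eif3l had coding peaks but no call.

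Ribosomal protein genes had an enriched coding peak in 6 of 30 genes (20%) and a depleted one in 0, with a list median of 0.46. Among them were Rps15, Rps7, Rps2, Rps3 and Rpl4, with 4.55 for Rps15 (adjusted p = 1.3e-13) per the authors' deposited table. How reads were shared among the many near-identical copies of these genes is not given, so their values are uncertain. Respiratory chain subunits had an enriched coding peak in 9 of 52 genes (17.3%) and a depleted one in 0, with a median of 0.42. Among them were Atp5a1, with a highest value of 4.17 (adjusted p = 2.4e-10) per the authors' deposited table, Cox4i1, Atp5b and Sdha. A processed copy, Cox5b-ps, was counted among the 9.

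Chromatin modifiers and remodellers had an enriched coding peak in 10 of 64 genes (15.6%) and a depleted one in 3 (4.69%), at a median of 4.5 coding peaks per gene, above that of all genes. The depleted members were Chd9, Kdm5c and Nsd1. Kinases and cyclins of transcription and splicing had 2 of 15 enriched (13.3%), Cdk11b and Hipk2, and 0 depleted. The SR proteins, hnRNPs and spliceosome factors had 4 of 43 enriched (9.30%) and 2 depleted (4.65%). Taf15 had 5.02 (adjusted p = 6.9e-13) per the authors' deposited table, and the depleted members were Rbm10 and Prpf8.

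Chaperones of the endoplasmic reticulum showed 2 of 14 genes enriched (14.3%), Calr and Canx, and 1 depleted, Ganab, and 11 of the 14, including Hspa5 and Pdia3, had neither. The list's median was -0.22, so the 11 enriched peaks of these 2 genes do not describe the group. Among 26 cytosolic chaperones, Hsp90ab1, Fkbp4 and Cct8 had enriched coding peaks, and Cct2 and Cct4 depleted ones. Cct8, Cct2 and Cct4 encode subunits of the same chaperonin ring. Their called peaks, 1 in each gene, stood in the authors' deposited table at 4.09 (adjusted p = 9.1e-10), -3.41 (adjusted p = 0.0022) and -2.77 (adjusted p = 0.049). Cct8 had 7 coding peaks with a median of 0.46 and Cct2 had 5 with a median of 0.40, so these peaks do not describe the whole genes, while that of Cct4 was its only one.

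The cholesterol list split evenly, with 3 of 22 genes enriched and 3 depleted (13.6% each). Fdft1, squalene synthase, had 1 enriched peak of 3 at 5.07 (adjusted p = 1.3e-10) per the authors' deposited table. Osbp, a sterol transporter, had 4.52 (adjusted p = 4.0e-08), and the lipoprotein receptor gene Lrp1 had 2 enriched peaks of 36, at 4.45 and 4.04, per the authors' deposited table. Opposite to them were Insig1, Dhcr7 (-3.63 and -4.60) and Mvd (-3.49) per the authors' deposited table, the latter pair being enzymes of cholesterol synthesis. Of the steroid synthesis list only Por, Tspo and Hsd17b4 had a coding peak, 1 each, with 0 called.

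Genes of cAMP and protein kinase A signalling likewise had 3 of 26 enriched and 3 depleted (11.5% each), at a median of 3.5 coding peaks per gene. Akap9, an anchoring protein, had 4 enriched peaks, with values of 5.09, 4.88, 4.26 and 4.02 by the authors' deposited table. The kinase subunit gene Prkaca had 2.53 (adjusted p = 0.049) and the regulatory subunit gene Prkar2a had -3.60 and -3.56 per the authors' deposited table. Pde3b, a phosphodiesterase that breaks down cAMP, and Akap8l were the other depleted members.

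Messages known for AU-rich elements, the classical targets of the family, had an enriched coding peak in 2 of 22 genes (9.09%) and a depleted one in 4 (18.2%), with a median of -1.19 over 52 peaks. The enriched ones were Jund, at 4.72 (adjusted p = 2.2e-16), and Dusp1, at 3.80 (adjusted p = 3.4e-06) over 158 nucleotides, per the authors' deposited table. Klf2, Klf4, Notch1 and Pim1 were depleted, from -3.57 to -3.02 per the authors' deposited table. Of 37 genes of mRNA decay and deadenylation 1 was enriched (2.7%), Upf2, and 1 depleted, Cnot6l, both shares below the background.

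Collagens and other matrix genes had a depleted coding peak in 8 of 39 genes (20.5%) and an enriched one in 4 (10.3%), at a median of 6 coding peaks per gene. Col1a2 and Hspg2 were on both sides. Fbn1, fibrillin, had 3 depleted peaks of -2.85, -3.08 and -3.06 per the authors' deposited table, and Lamc1, a laminin chain, had an enriched one at 4.89 (adjusted p = 2.2e-09). The 108 numbered zinc finger genes with a coding peak had 1 enriched (0.926%), Zfp106, and 9 depleted (8.33%). Solute carriers had 3 enriched and 6 depleted of 86 genes. Kinesins, dyneins and myosins had 2 and 3 of 39, DEAD and DEAH box helicases 2 and 1 of 32, and cell cycle genes 2 and 2 of 24.

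The sarcomere and cardiac muscle list had an enriched coding peak in 16 of 57 genes (28.1%) and a depleted one in 7 (12.3%), with 59 enriched and 8 depleted peaks and a median of 0.26. Its genes had a median of 8 coding peaks, against 2 over all genes. Atp2a2, the calcium pump of the sarcoplasmic reticulum, had 4 enriched of 26, from 1.59 to 2.95 per the authors' deposited table. Mybpc3, myosin-binding protein C, had a depleted peak at -3.74 (adjusted p = 0.00025) per the authors' deposited table.

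**Figure D5:**
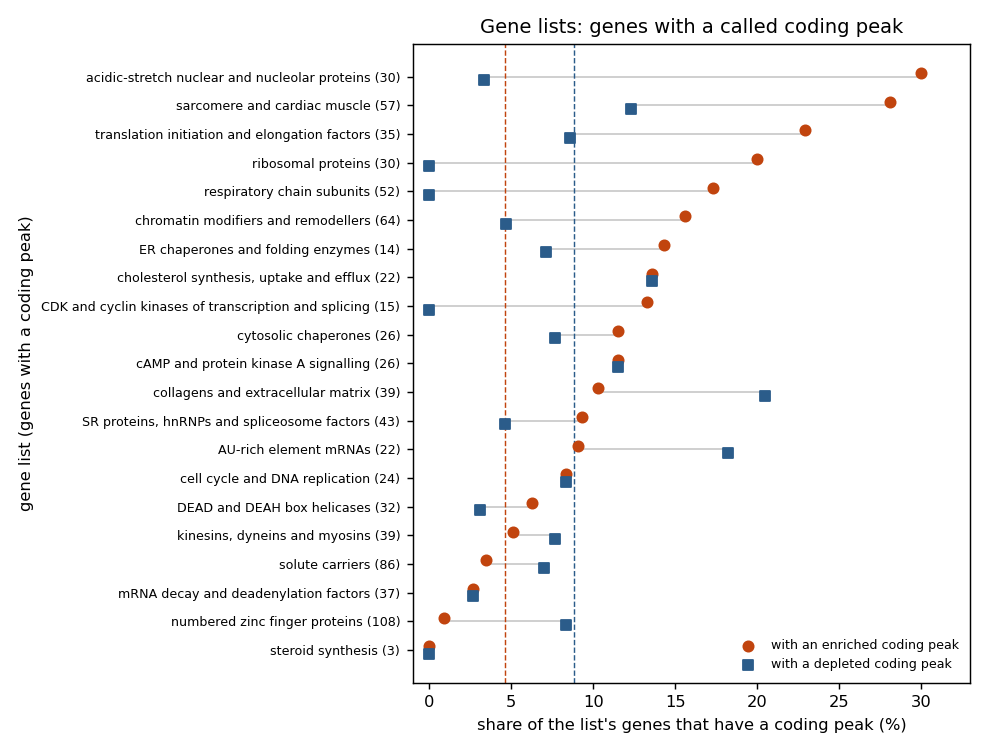
Share (%, horizontal) of the genes of each list that had at least 1 enriched (orange circle) or depleted (blue square) coding peak, among genes with any coding peak (number in brackets). Dashed lines mark the shares over all 6233 genes, 4.62% and 8.81%, and the acidic-stretch list lies farthest from the first at 30%.

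Coding peaks were set against the other peaks of the same genes. In 3244 genes with both coding and intron peaks, the median over genes of the gene's median was -0.75 for coding and -1.39 for intron peaks, and the coding value was the higher in 2132 genes (65.7%). The coding value was the higher in 56.7% of 2147 genes with 3′ UTR peaks and in 55.7% of 564 genes with 5′ UTR peaks. Calls of coding peaks were then set beside those of the same gene's other regions. Of 177 genes with an enriched coding peak and intron peaks, 27 also had an enriched intron peak, which is 15.3% of them and 23.3% of the 116 with an enriched intron peak. Over all 3244 genes 3.58% had an enriched intron peak. A depleted intron peak was found in 31 of the 177 (17.5%), against 19.2% of the 3244.

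For depletion, 88 genes had it in both coding and intron peaks, which is 26.4% of the 333 with a depleted coding peak and 14.1% of the 622 with a depleted intron peak, where 19.2% of all 3244 had one. With 3′ UTR peaks, 17 genes shared enrichment (12.4% of 137 by coding peaks and 29.3% of 58 by 3′ UTR peaks), where 2.7% of all 2147 had an enriched 3′ UTR peak. Depletion was shared by 26 genes (13.6% of 191 and 14.5% of 179), where 8.34% of all 2147 had a depleted one. Genes with many coding peaks held a called one more often, as given above, and no test of these overlaps was made. In 1987 genes the coding peaks, 5239 of them, came with no intron or UTR peak at all, and 57 of these genes had an enriched and 151 a depleted coding peak. Both shares were below the 4.62% and 8.81% over all genes with a coding peak. Anp32b, Calr, Cdk11b and Hmgn5 were among the 57.

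Coding peaks lay mostly toward the 3′ end of genes. Measured along the RefSeq gene with its introns, the median coding peak lay 70.7% of the way from the 5′ end, at 73.1% for enriched and 72.1% for depleted peaks. The last 10% of the gene held 19.7% of all coding peaks, 20.9% of the enriched and 20.6% of the depleted. In the first 10% lay 6.37%, 10.5% and 8.56%. Introns count in these lengths, so the positions are not positions in the message.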

How the data were processed

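eCLIP libraries of MLTC-1 cells (20 ug of RNA, integrity number 8.35, per the labels' protocols) were processed by the authors with STAR 2.7.7a, cutadapt 3.2, DESeq2 1.34.0 and UMI-tools 1.1.1 on mm10, per the submitters' processing notes, which give no role or order here. The peak caller, any pooling of libraries, the use of the inputs and the normalization of the ratio between antibodies are not given in these sources.

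The authors deposited the ratio of ZFP36L2 to IgG as a log2 fold change, read here in the direction of the table's name. They deposited raw and adjusted p-values on a −log10 scale, which were turned back into p-values. A Benjamini-Hochberg adjustment over all 55449 peaks came within 0.0099 (−log10 scale) of the deposited adjusted p. The spread these p-values measure is not given, and may be technical. The table holds 0 columns of single libraries, so no depth, error or interval can be given.

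Coding peaks were counted by gene with Python 3.11.15, pandas 2.3.3 and scipy 1.17.1, a peak with several gene names (82 peaks) counting for each. Calls needed an adjusted p under 0.05 together with a log2 value of 1 or more in size. Touching peaks are neighbours on a strand with no base between them. Gene names and sequences were matched to RefSeq tables of GRCm38.p6. The counting of calls was tested on simulated data.

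The named genes are those with the smallest adjusted p, the largest log2 fold change, the most coding peaks, the most called peaks, the longest peaks, 4 or more peaks all called, calls in both directions, up to 4 called members of each list, and a fixed set. The members, lists and rule were chosen with earlier results of these data known. Genes with sequences shown, members named only in a list, and marker genes fall outside the rule and were chosen after their values were seen. The alternatives changed the thresholds, centring, merging, peak length, gene names, adjustment, peaks per gene and the cardiac list. Some items that the rule names are left out of the text.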

Additional observations from a re-analysis of the deposited data

How the results depend on the processing

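Counts of enriched and depleted coding peaks, of their genes, the coding share of called peaks and the median were recomputed under each alternative. Counts that stayed within 1.5 times are given as ranges only. Enriched peaks numbered 388 to 484 and depleted ones 533 to 764 outside the values named next, with the lowest enriched count without peaks shorter than 20 nucleotides. Shares and medians are named where they left the 95% binomial interval of the reported value. Some values cannot move by construction, such as the median under another threshold and gene counts after merging. Centring on the table's median turned the coding median from -0.72 to 0.34. An adjusted p under 0.01 left 469 depleted peaks in 336 genes. With 1 peak per gene (the one with the smallest adjusted p), 283 enriched peaks were left, the median was -1.45 and coding peaks were 49.9% of enriched ones. The median was -0.68 with touching peaks merged and -0.58 without peaks shorter than 20 nucleotides. Without the sarcomere and cardiac muscle list it was -0.80, and coding peaks were 36.3% of enriched ones. Among the 20 genes with at least 3 coding and 3 5′ UTR peaks, the coding median was the higher in 65.0%. The length classes without the sarcomere and cardiac muscle list were added after seeing the data. The causes of these moves were not tested. No paired analysis was possible because the table holds no values of single libraries, and leaving out a library was not possible for the same reason. The planned search for acidic runs in proteins and the extension of peaks by 20 bases before a motif search were not run, since protein and genome sequences were not used here.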

Other observations

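Bins with depleted coding peaks in 3 genes were ranked by the number of those peaks. Outside the 2 bins on chromosome 17, the highest was on chromosome 5, where 12 of 30 coding peaks were depleted. They lay in Abcb8, Slc4a2 and Smarcd3, with a median deposited log2 fold change of -2.33. On chromosome 7, 9 of 24 were depleted in Art1, Xndc1 and Xntrpc (median -3.21). The bin with the most enriched coding peaks in several genes was on chromosome 11, with 8 of 20 in Canx and Hnrnph1 (median 1.54). Over all coding peaks 3.74% were depleted and 2.35% enriched. These loci were chosen after their values were seen, so their higher shares follow from the choice.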
